A study of Mus musculus with 4 samples.

Results

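Regulators of G protein signaling (RGS proteins) were followed as RNA in T cells of B16 melanoma, a transplantable mouse tumor line, together with Rgcc. The genes were Rgs1, Rgs2, Rgs3, Rgs10, Rgs16 and Rgcc, 6 of the 32285 genes in the count tables. On GRCm38.p6, Rgs1 (ENSMUSG00000026358) spans chr1:144244669-144249104, Rgs2 (ENSMUSG00000026360) chr1:143999338-144004149 and Rgs16 (ENSMUSG00000026475) chr1:153740353-153745468. Rgs3 (ENSMUSG00000059810) spans chr4:62559835-62703019, Rgs10 (ENSMUSG00000030844) chr7:128373621-128419506 and Rgcc (ENSMUSG00000022018) chr14:79288750-79301635. They were chosen on earlier results from the same libraries, in which some of them differed between genotypes, so the ratios between the libraries below are a description of known members and carry no test. Tumors came from Vsir fl/fl CD4-Cre mice (VISTA-KO) and from Vsir fl/fl littermates without Cre (WT), both on the C57BL/6 background. Vsir encodes the immune checkpoint VISTA, both genotypes carry the floxed allele, and the Cd4 promoter drives Cre in developing thymocytes, so that CD8 as well as CD4 T cells lie in the Cre lineage. All mice received a TRP2 peptide vaccine with CpG and R848 on day 3 and anti-CTLA-4 antibody on days 4 and 8. The labels give no age for these mice. CD4 and CD8 tumor-infiltrating lymphocytes (TILs) of several tumors were pooled before sequencing, which left 1 gene expression library and 1 T cell receptor library for each genotype and no replicate.

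When a receptor activates a heterotrimeric G protein, its G alpha subunit binds GTP and separates from G beta and gamma. RGS proteins speed up the hydrolysis of that GTP and so shorten the signal, which in lymphocytes comes mainly from chemokine, lipid and prostaglandin receptors. Rgcc, the regulator of cell cycle also called RGC-32, is not an RGS protein despite its similar name. It binds the mitotic kinase Cdk1 and is induced by complement and by growth signals.

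Cells were sorted into kinds by their own UMIs, the unique molecular identifiers that count RNA molecules. A cell counted as CD8 when it held Cd8a or Cd8b1 but lacked Cd4 (5482 WT and 4301 VISTA-KO cells). Conventional CD4 cells had a Cd4 UMI and no Foxp3 UMI (1661 and 2983), and regulatory cells had both (1491 and 1260). Cells with at least 2 Siglech UMIs (221 and 138) were taken out first and formed the fourth kind. Another 1369 WT and 1264 VISTA-KO cells fell in none. Levels are CPM, the summed UMIs of a gene in a group of cells divided by all UMIs of that group and scaled to 1000000. The intervals in parentheses are exact 95% intervals (Poisson for levels, conditional binomial for ratios, Clopper-Pearson for shares) and cover counting error only, not the spread between mice.

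The kinds held between 1430496 and 36756944 UMIs, and the median cell between 3922 and 9485.5. Regulatory cells were deeper in WT (median of 8739 UMIs) than in VISTA-KO (5908), held a Cd8a or Cd8b1 UMI in 759 of 1491 against 367 of 1260 cells, and had a productive beta chain in 52.6% against 75.7%. Markers of plasmacytoid dendritic cells summed to 14024 CPM in WT against 16166 CPM in VISTA-KO Siglech cells, where 10 of 10 exceeded 20 CPM, and to between 369 and 451 CPM in the T cell kinds. These markers include Siglech, the gene that defines this kind, so its own level there was fixed by the gate and adds to the sums. The Siglech cells also held T cell markers at 1322 and 693 CPM and Cd8a with Cd8b1 at 990.5 and 716 CPM, so that they were not free of T cell RNA. The authors describe the knockout as specific to T cells. For Siglech cells VISTA-KO therefore names the mice of origin, and deletion in these cells was not measured. Melanoma markers were uneven, at 10.6 and 203 CPM in CD8, 231 and 16.1 CPM in conventional CD4 and 5.82 and 197 CPM in regulatory cells of WT and VISTA-KO. The libraries shared 145 cell barcodes, and without them the log2 ratios of the genes past the fold given below moved by less than their counting intervals. Vsir itself stood at 112 CPM in CD8 cells of both libraries. Where the loxP sites lie is not given in the sources used here, and a count per gene does not tell reads inside the deleted part from those outside, so this level checks neither the deletion nor the labels.

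The promoter windows of the 3 genes that were most unequal between the libraries in CD8 cells, Rgs2, Rgs16 and Rgcc, are shown first. They hold the RefSeq start sites of these genes, and the start sites used in these cells were not measured. Each runs from 250 bases before to 50 bases after the RefSeq start on GRCm38.p6, written 5′ to 3′ on the strand of the gene. The RefSeq table held windows for 5 of the 6 genes. Capitals mark matches on either strand to TGACG (a half-site of the cAMP response element), CCAAT (the box of that name), TATAA (the TATA box), TGANTCA (AP-1), AAGGTCA (NR4A), GCGNGGGCG (EGR), GGAAAA (NFAT) or the NF-kB motif. The Rgs2 window lies at chr1:144004100-144004399 on the minus strand, that of Rgs16 at chr1:153740103-153740402 on the plus strand and that of Rgcc at chr14:79301586-79301885 on the minus strand.
Rgs2: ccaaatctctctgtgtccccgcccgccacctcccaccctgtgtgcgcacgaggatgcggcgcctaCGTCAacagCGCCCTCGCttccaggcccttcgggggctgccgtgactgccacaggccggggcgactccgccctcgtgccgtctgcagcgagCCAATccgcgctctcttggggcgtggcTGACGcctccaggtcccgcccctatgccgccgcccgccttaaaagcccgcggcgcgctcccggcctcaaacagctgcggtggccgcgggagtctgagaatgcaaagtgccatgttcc
Rgs16: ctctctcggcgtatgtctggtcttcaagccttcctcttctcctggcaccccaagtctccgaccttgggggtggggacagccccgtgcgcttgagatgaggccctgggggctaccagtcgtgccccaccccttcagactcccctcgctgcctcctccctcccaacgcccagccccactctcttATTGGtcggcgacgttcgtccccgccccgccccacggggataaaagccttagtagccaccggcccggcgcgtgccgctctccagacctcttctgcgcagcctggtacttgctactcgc
Rgcc: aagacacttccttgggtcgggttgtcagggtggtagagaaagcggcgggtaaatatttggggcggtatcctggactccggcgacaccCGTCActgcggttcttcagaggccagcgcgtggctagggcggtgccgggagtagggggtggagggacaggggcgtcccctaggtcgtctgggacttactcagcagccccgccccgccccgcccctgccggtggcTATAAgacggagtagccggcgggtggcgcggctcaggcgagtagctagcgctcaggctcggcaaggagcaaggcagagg
The Rgs2 window held TGACG at 67 and 185 bases before the start, CCAAT at 94 and GCGNGGGCG at 176. The Rgs16 window held CCAAT at 68 bases before the start, and the Rgcc window held TATAA at 29 and TGACG at 163. Over all 32851 windows of this length, 20.8% held TGACG, 37.4% the CCAAT box, 24.9% the TATA box and 5.55% the EGR motif. No match to the AP-1, NR4A, NFAT or NF-kB motif was found in the 3 windows, against 7.81%, 4.72%, 23.4% and 4.79% of all windows. These matches are letters in a window and not measured binding. The GC box (GGGCGG) was searched but not capitalized. It occurred 4 times in Rgs2, 2 times in Rgs16 and 5 times in Rgcc, and 35.7% of all windows held it.

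Rgs3 and Rgs16 had the same order of levels across the 4 kinds, and Rgs1 in VISTA-KO had that of Rgcc. The orders of the other genes differed. The order was the same in both libraries for Rgs2, Rgs3, Rgs10, Rgs16 and Rgcc, apart from the neighbours named below. Rgs1, which acts on Gi proteins and dampens chemokine responses, was highest in conventional CD4 cells, at 1116 CPM (1095 to 1137) in WT against 1245 CPM (1228 to 1263) in VISTA-KO. It stood at 809.8 and 840.3 CPM in CD8 cells, 774 and 892 CPM in regulatory cells, and 374 and 504 CPM in Siglech cells. CD8 and regulatory cells thus changed places between the libraries, although each gap exceeded counting error. After each cell was thinned to 2000 UMIs, between 59.6% and 68.5% of the cells of each T cell kind held an Rgs1 UMI, against 32.7% of WT and 43.8% of VISTA-KO Siglech cells.

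**Figure D1:**
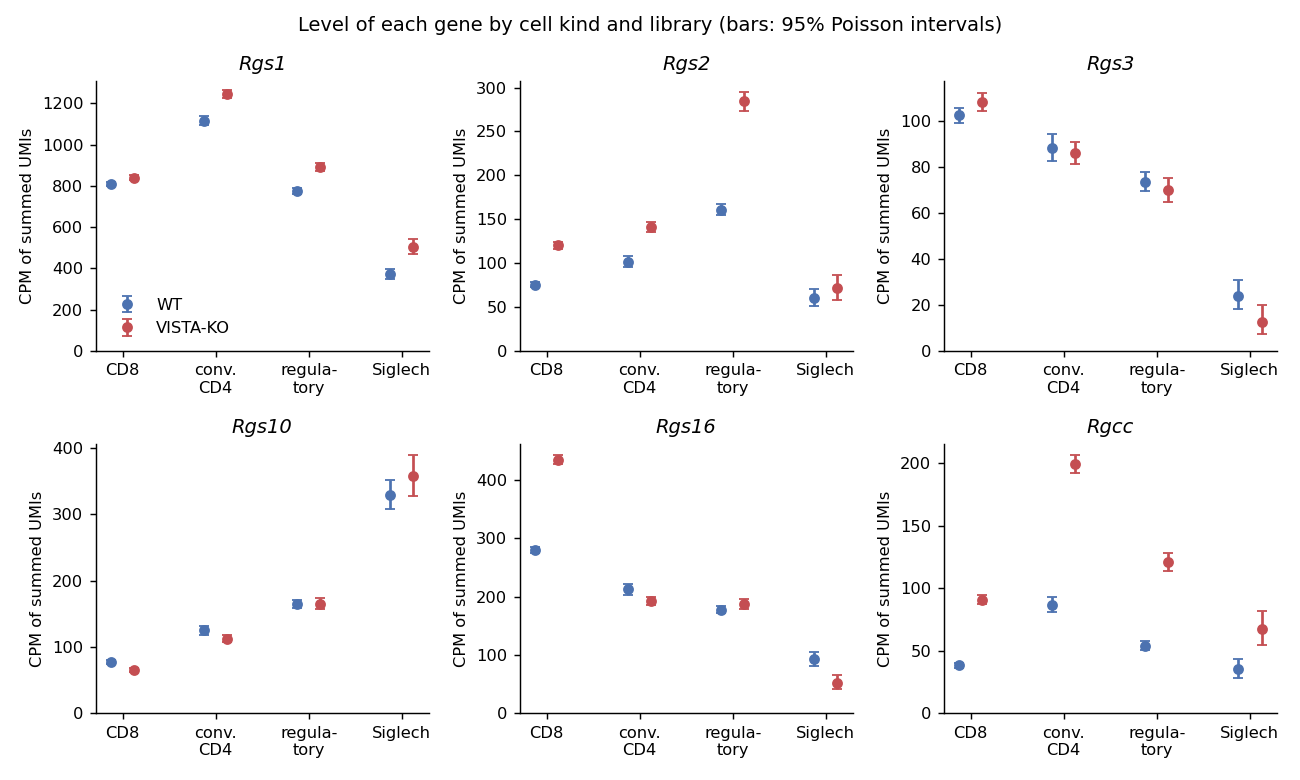
Level of each gene in CPM of summed UMIs (vertical axis, from 0) in the 4 cell kinds (horizontal axis) of the WT (blue) and VISTA-KO (red) library, with exact 95% Poisson intervals. Rgcc is higher in the VISTA-KO library in all 4 kinds, while Rgs10 is highest in Siglech cells of both libraries.

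Rgs2, which acts preferentially on Gq, was highest in regulatory cells, at 161 CPM (155 to 167) in WT against 284 CPM (274 to 295) in VISTA-KO. Conventional CD4 cells followed at 101 and 141 CPM, CD8 cells at 75.1 and 120 CPM, and Siglech cells at 60.1 and 71.3 CPM. Every step of this order exceeded counting error in both libraries. Rgs3, which limits Gi and Gq signals and is known from cell migration, had the opposite order among T cells, with its highest level in CD8 cells (103 and 108 CPM) and then conventional CD4 (88.3 and 86.1 CPM), regulatory (73.7 and 69.8 CPM) and Siglech cells (23.8 and 12.6 CPM).

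Rgs10, a small RGS protein known from microglia and other myeloid cells, was highest in Siglech cells, at 329 CPM (307 to 352) in WT against 357 CPM (327 to 390) in VISTA-KO. It was detected in 48.6% and 48.9% of thinned Siglech cells. In regulatory cells it stood at 165 CPM in both libraries, in conventional CD4 cells at 125 and 113 CPM, and in CD8 cells at 77.2 and 65.1 CPM. It was therefore the only one of the 6 genes whose level was higher in Siglech cells than in each T cell kind.

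Rgs16, an RGS protein known as induced by T cell activation, was highest in CD8 cells, at 280 CPM (275 to 286) in WT against 434 CPM (427 to 442) in VISTA-KO. Conventional CD4 cells held 213 and 192 CPM and regulatory cells 178 and 188 CPM, and these neighbours did not differ beyond counting error in VISTA-KO (ratio of 1.03, 0.966 to 1.09). By thinned share of cells with an Rgs16 UMI they ran the other way, at 11.6% and 11.6% in conventional CD4 against 22.8% and 21.0% in regulatory cells. In Siglech cells Rgs16 stood at 92.6 and 52.4 CPM, but 84.8% and 89.3% of these UMIs lay in the top 5% of the cells, and only 3.18% and 1.46% of thinned cells held one. Rgs16 was uneven within T cells too, with 54.8% of WT and 46.5% of VISTA-KO CD8 UMIs in the top 5% of CD8 cells. The same shares were 69.3% and 74.2% in conventional CD4 cells and 41.1% and 45.2% in regulatory cells.

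Rgcc was highest in conventional CD4 cells, at 87.0 CPM (81.3 to 93.1) in WT against 199.5 CPM (192 to 207) in VISTA-KO. Regulatory cells held 54.0 and 121 CPM, CD8 cells 38.4 and 90.7 CPM and Siglech cells 35.1 and 67.1 CPM. The last 2 kinds did not differ beyond counting error in WT (ratio of 1.09, 0.883 to 1.37). No kind of cell in these tables is known to lack these genes. The lowest thinned shares of cells with a UMI, all in Siglech cells at median depths of 9181 and 9485.5 UMIs, were 1.82% and 3.65% for Rgs3, 3.18% and 1.46% for Rgs16, 4.55% and 12.4% for Rgcc, and 7.73% and 12.4% for Rgs2. For Rgs10 the lowest were 13.4% and 11.8%, in CD8 cells at median depths of 4819 and 5196 UMIs.

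Between the libraries, Rgcc was the most unequal of the 6 genes in every kind of cell. In CD8 cells it was higher in VISTA-KO by a ratio of 2.36 (2.21 to 2.52), in conventional CD4 cells by 2.29 (2.12 to 2.48), in regulatory cells by 2.23 (2.05 to 2.44) and in Siglech cells by 1.91 (1.42 to 2.57). All 6 genes reached 20 CPM in every kind, Rgs3 in Siglech cells through the WT library alone. The place of Rgcc among all genes of at least 20 CPM, counted from the highest log2 ratio, was 18 of 6065 in CD8 and 15 of 6261 in conventional CD4 cells, 30 of 6274 in regulatory and 33 of 6405 in Siglech cells. Among thinned CD8 cells, 6.80% of WT (6.13 to 7.52) and 13.6% of VISTA-KO cells (12.6 to 14.7) held an Rgcc UMI, and the cells that held one also held more, at 1.29 and 1.65 UMIs per cell.

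Rgs2 was higher in VISTA-KO in the T cell kinds, by a ratio of 1.60 (1.52 to 1.68) in CD8, 1.39 (interval from 1.29 to 1.498) in conventional CD4 and 1.77 (1.68 to 1.86) in regulatory cells. In Siglech cells the ratio was 1.19, with an interval from 0.914 to 1.53. The thinned share of cells with an Rgs2 UMI was 10.4% and 15.8% in CD8 cells and 26.6% and 37.1% in regulatory cells. Without the regulatory cells that held Cd8 UMIs, which were more frequent in WT, the log2 ratio there was 0.65 for Rgs2 and 0.76 for Rgcc, against 0.80 and 1.09 with them. Without cells with more than 1 melanoma marker UMI the CD8 values were 0.66 and 1.15, against 0.64 and 1.14. This kept 5474 of 5482 WT and 4294 of 4301 VISTA-KO CD8 cells. Rgs2 UMIs per positive CD8 cell were 1.30 and 1.33, close to the floor of 1 at this depth, so that more cells with Rgs2 and more Rgs2 RNA per cell cannot be told apart.

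The Rgs16 ratio changed direction between kinds. It was 1.55 (1.51 to 1.59) in CD8 cells, 0.905 (0.855 to 0.958) in conventional CD4 cells, 1.06 (0.996 to 1.12) in regulatory cells and 0.566 (0.431 to 0.737) in Siglech cells. The conventional CD4 value, a log2 ratio of -0.14, turned to 0.36 when each cell weighed the same and to 0.52 without cells that held Cd8 UMIs. Over all alternatives it ran from -0.41, without the largest clonotype of each library, to 0.64, among cells of 2000 to 10000 UMIs. The regulatory value, a log2 ratio of 0.08, was 0.43 with a beta chain required and 0.005 without cells with 2 or more beta chains. The Siglech value rests on 237 and 75 UMIs and turned to a log2 ratio of 0.53 among cells of 2000 to 10000 UMIs. Rgs1 stayed near 1 in T cells, with ratios of 1.04 (1.02 to 1.06) in CD8, 1.12 (1.09 to 1.14) in conventional CD4 and 1.15 (1.12 to 1.18) in regulatory cells, and reached 1.35 (1.22 to 1.49) in Siglech cells.

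Rgs3 had ratios of 1.06 (1.01 to 1.11), 0.976 (0.895 to 1.06) and 0.948 (0.862 to 1.04) in CD8, conventional CD4 and regulatory cells. Its ratio of 0.528 (0.294 to 0.906) in Siglech cells rests on 61 WT and 18 VISTA-KO UMIs. Rgs10 was lower in VISTA-KO CD8 cells, with a ratio of 0.844 (0.795 to 0.896), and in conventional CD4 cells, with 0.901 (0.836 to 0.970), while the intervals of its ratios of 1.00 in regulatory and 1.09 in Siglech cells held 1. The regulatory value depended on the cells kept, since its log2 ratio of 0.004 was -0.27 with a beta chain required.

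**Figure D2:**
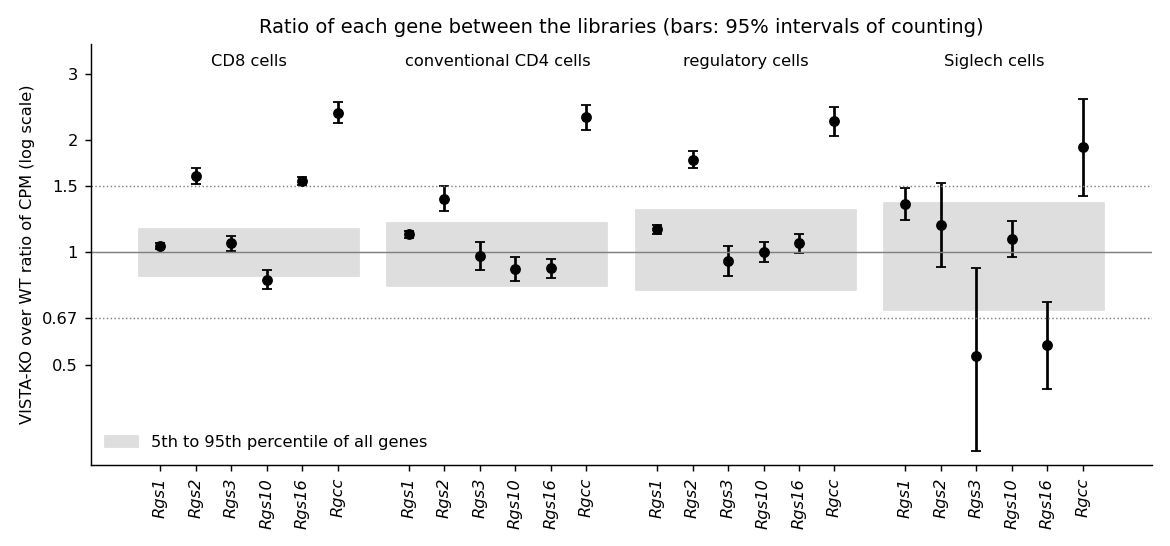
Ratio of VISTA-KO over WT CPM on a log scale (vertical axis) for the 6 genes (horizontal axis) in each cell kind, with 95% intervals of counting. Grey bands run from the 5th to the 95th percentile of all genes of at least 20 CPM (after 5 CPM were added to both libraries), and dotted lines mark a fold of 1.5 in either direction. Rgcc lies above the upper line in all 4 kinds.

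A fold of 1.5 between the libraries, taken after adding 5 CPM to each, was used to count genes. In CD8 cells, 3 of the 6 genes were higher in VISTA-KO past this fold (Rgs2, Rgs16 and Rgcc) against 0.824% of all 6065 genes, and 0 were lower against 0.594%. In conventional CD4 cells, 1 was higher (Rgcc) against 1.01% and 0 lower against 1.1%. In regulatory cells, 2 were higher (Rgs2 and Rgcc) against 1.93% and 0 lower against 1.79%. In Siglech cells, 1 was higher (Rgcc) against 1.87% and 2 were lower (Rgs3 and Rgs16) against 3.92%. Without the largest CD8 clonotype of each library, Rgs16 and Rgs2 no longer passed the fold in CD8 cells (log2 ratios of 0.40 and 0.56), and the same held without clonotypes of 100 or more cells (0.39 and 0.52). Because the genes were selected on this contrast, nothing is read from these counts. The conventional CD4 and regulatory kinds share their libraries with the CD8 cells and are not independent repeats of the comparison.

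CD8 cells were next divided by other genes into groups, of which 7 are described, read in this order. Dividing cells held at least 2 UMIs of Mki67 and Top2a. Among cells without Pdcd1, which encodes PD-1, 1 group was set aside and is not reported here, and the next groups held Cx3cr1 or S1pr5, or Il7r. Cells with Pdcd1 were divided into those with Havcr2, which encodes TIM-3, those with Tcf7 and without Havcr2, and the others. The last group held the remaining cells without Pdcd1. None of the 6 genes was used for these groups. A UMI of a marker is more easily seen in a deep cell, so the groups were also read on cells thinned to 2000 UMIs, and values that this moved are given beside the first ones.

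Rgs16 followed the Pdcd1 and Havcr2 cells most steeply. Its level was 596 CPM in WT against 856 CPM in VISTA-KO cells with Pdcd1 and Havcr2, and 453 and 615 CPM in dividing cells. It was lowest at 32.6 and 87.5 CPM in cells with Cx3cr1 or S1pr5, and 41.7 and 37.2 CPM in those with Il7r. The highest group thus exceeded the lowest by 18.3 times in WT and 23.0 times in VISTA-KO, the widest range of the 6 genes among CD8 cells in either library. With groups read on thinned cells, cells with Pdcd1 and Havcr2 held 653 and 967 CPM, those with Cx3cr1 or S1pr5 103 and 227 CPM and those with Il7r 44.3 and 77.1 CPM.

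Rgcc ran the other way. It was lowest in cells with Pdcd1 and Havcr2, at 20.7 and 47.8 CPM, and highest in cells with Il7r, at 76.9 and 199 CPM. With groups read on thinned cells these values were 16.5 and 26.3 CPM, and 72.6 and 188 CPM. Rgs10 was also highest in cells with Il7r, at 107 and 74.9 CPM, and lowest in cells with Cx3cr1 or S1pr5, at 42.0 and 28.8 CPM. On thinned cells Rgs10 was lowest in dividing cells, at 37.7 and 35.7 CPM. Cells with Cx3cr1 or S1pr5 then held 42.3 and 36.1 CPM. Rgs2 resembled Rgs16 in having its highest level in cells with Pdcd1 and Havcr2 (108 and 180 CPM). Rgs1 was highest in the other Pdcd1 cells, at 1028 and 1087 CPM, and lowest in dividing cells in WT (587 CPM) but in cells with Pdcd1 and Tcf7 in VISTA-KO (714 CPM). On thinned cells Rgs1 was highest in cells with Pdcd1 and Tcf7 in WT (979 CPM) and with Pdcd1 and Havcr2 in VISTA-KO (1017 CPM). The other Pdcd1 cells then held 895 and 955 CPM. Rgs3 ranged from 73.5 to 133 CPM in WT and from 80.8 to 149.5 CPM in VISTA-KO. On thinned cells these ranges were 71.0 to 122 CPM and 70.0 to 143 CPM.

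**Figure D3:**
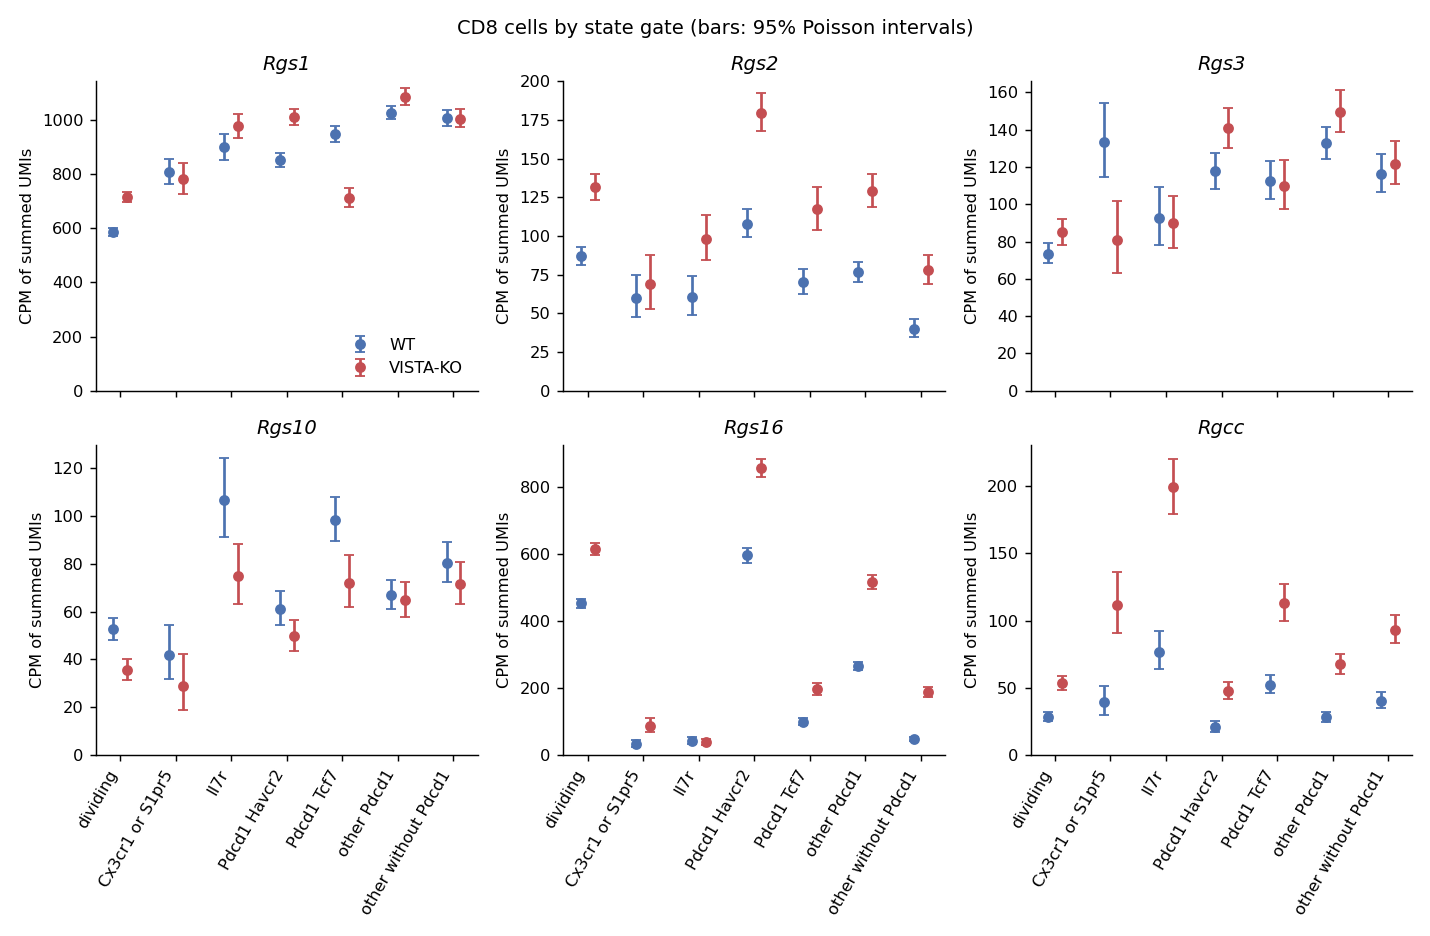
Level in CPM of summed UMIs (vertical axes, from 0) of each gene in 7 groups of CD8 cells (horizontal axes) of the WT (blue) and VISTA-KO (red) library, with exact 95% Poisson intervals. Rgs16 peaks in cells with Pdcd1 and Havcr2, where Rgcc is lowest, and Rgcc is higher in VISTA-KO in each of the 7 groups.

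Within these groups the libraries differed in the same direction for Rgcc, Rgs2 and Rgs10, but not for the others. The Rgcc ratio of VISTA-KO over WT had an interval above 1 in 7 of 7 groups, from 1.88 (1.61 to 2.20) in dividing cells to 2.86 (2.04 to 4.06) in those with Cx3cr1 or S1pr5. The ends of this range depended on the reading of the groups. On thinned cells the interval was again above 1 in 7 of 7 groups, but the ratio was 2.27 in dividing cells, 1.68 (1.19 to 2.37) in those with Cx3cr1 or S1pr5, lowest at 1.59 (1.00 to 2.57) in those with Pdcd1 and Havcr2 and highest at 2.59 in those with Il7r. The Rgs2 ratio was above 1 in 7 of 7 groups, with the interval above 1 in 6, from 1.14 (0.808 to 1.61) in cells with Cx3cr1 or S1pr5 to 1.94 (1.61 to 2.36) in the other cells without Pdcd1. On thinned cells 5 of 7 intervals were above 1. The Rgs10 ratio was below 1 in 7 of 7 groups, with the interval below 1 in 4, and the lowest value of 0.678 (0.582 to 0.789) in dividing cells. On thinned cells it was 0.946 (0.726 to 1.23) in dividing cells and lowest at 0.577 (0.476 to 0.698) in those with Il7r.

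The Rgs16 ratio went from 0.892 (0.627 to 1.27) in cells with Il7r to 4.03 (3.44 to 4.73) in the other cells without Pdcd1. This contrast depended on the reading of the groups, since on thinned cells the ratios were 1.74 (1.35 to 2.25) with Il7r and 1.64 (1.55 to 1.74) in the other cells without Pdcd1, and all 7 intervals lay above 1. It was 1.44 (1.37 to 1.51) in cells with Pdcd1 and Havcr2 and 1.98 (1.74 to 2.26) in those with Pdcd1 and Tcf7, against 1.48 and 1.99 on thinned cells. Without the largest CD8 clonotype of each library these were 1.47 and 1.57. Rgs1, nearly equal between libraries over all CD8 cells, was lower in VISTA-KO in cells with Pdcd1 and Tcf7 (ratio of 0.752, 0.711 to 0.795), and higher in dividing cells (1.22, 1.18 to 1.27) and those with Pdcd1 and Havcr2 (1.19, 1.14 to 1.24). Without the largest CD8 clonotype of each library, the Rgs1 ratio in cells with Pdcd1 and Tcf7 was 0.803 (0.756 to 0.851). The Rgs1 ratio over all CD8 cells is therefore a mean of unlike groups.

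Conventional CD4 cells were divided by division and Cxcr6, and regulatory cells by division and Itgae, with remaining cells as a group of their own. Of the conventional CD4 cells, 1 further group was set aside before the remaining cells and is not reported here. Groups with fewer than 50 cells in a library were left out. Unlike those of CD8 cells, these groups were not also read on thinned cells, so how far their ratios depend on depth was not tested. Rgcc was higher in VISTA-KO in all 3 conventional CD4 groups (1.97 to 2.16) and all 3 regulatory groups (1.68 to 2.74), with every interval above 1. Its highest level was in the remaining conventional CD4 cells, at 126 and 254 CPM. Rgs2 was highest in regulatory cells with Itgae, the integrin chain CD103, at 192 and 327 CPM.

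Rgs16 in conventional CD4 cells was highest in dividing cells, where it was lower in VISTA-KO (382 and 301 CPM, ratio of 0.787, 0.712 to 0.869). In both other conventional CD4 groups it was higher in VISTA-KO, with 1.18 (1.08 to 1.28) in cells with Cxcr6 and 3.14 (2.20 to 4.60) in the remaining cells. Regulatory cells showed the same split between dividing cells (0.731, 0.649 to 0.822) and those with Itgae (1.47, 1.31 to 1.67). Dividing cells made up 405 of 1491 WT and 170 of 1260 VISTA-KO regulatory cells. Rgs1 was highest in conventional CD4 cells with Cxcr6, a receptor of tissue-resident lymphocytes, at 1325 and 1531 CPM.

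T cell receptor chains gave a grouping of cells that the choice of genes had not used. Ratios between the libraries within it still come from the contrast on which the genes were chosen. A clonotype was a set of cells with the same V gene and junction in the alpha and the beta chain. The largest CD8 clonotype of the WT library held 1034 cells, 24.9% of its CD8 cells with a clonotype, and that of the VISTA-KO library 291 cells, 8.43%. In the WT clonotype Rgs16 stood at 14.4 CPM (11.3 to 18.2), against 515 CPM (485 to 547) in the next one of 318 cells and 929 CPM (871 to 990) in the third of 79 cells. In VISTA-KO the 3 largest held 505, 841 and 1013 CPM.

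The low Rgs16 level of the largest WT clonotype was seen in each of the 7 groups of CD8 cells, although the interval of the ratio held 1 in cells with Cx3cr1 or S1pr5 and with Il7r. Among cells with Pdcd1 and Havcr2, where other WT cells held 610 CPM, its 25 cells held 40.9 CPM. Among the other Pdcd1 cells, its 383 cells held 12.8 CPM against 357 CPM (ratio of 0.0357, 0.0228 to 0.0534). Rgs1 was not low in the same cells, at 1147 against 986 CPM. Rgs2 was low there too, at 32.4 against 92.5 CPM.

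Once the largest clonotypes of both libraries were left out, Rgs16 in CD8 cells stood at 322 CPM in WT against 428 CPM in VISTA-KO, and the log2 ratio went from 0.62 to 0.40, under the fold of 1.5. The Rgs16 ratio in the other cells without Pdcd1 moved from 4.03 to 3.10, a smaller move than to the 1.64 of groups read on thinned cells. In cells with Pdcd1 and Tcf7 it moved from 1.98 to 1.57 (1.38 to 1.79), and in the other Pdcd1 cells from 1.93 to 1.46. The largest clonotype made up 28.8% of WT and 0.252% of VISTA-KO cells with Pdcd1 and Tcf7. The log2 ratio of Rgs2 went from 0.64 to 0.56, also under the fold, while that of Rgcc was 1.16 after 1.14 before. The count of CD8 groups with an Rgs16 interval above 1 was 6 with and without the largest clonotypes.

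The WT library held 54 CD8 clonotypes of at least 10 cells and the VISTA-KO library 41. Rgs16 varied between them from 0 to 1271 CPM in WT and from 0 to 1553 CPM in VISTA-KO, and was under 50 CPM in 19 WT and 7 VISTA-KO clonotypes and over 500 CPM in 16 and 17. The median clonotype held 362 CPM in WT against 298 CPM in VISTA-KO, the reverse of the order over all CD8 cells. The 25th percentile (15.4 against 76.8 CPM) and the 75th (548 against 856 CPM) were higher in VISTA-KO, as over all CD8 cells. Rgcc had medians of 11.4 and 44.6 CPM and Rgs2 of 59.1 and 88.7 CPM, the same order as over cells. Rgs1 had medians of 840 and 1044 CPM and no clonotype at 0. Clonotypes of 1 library come from the same pool of tumors and are not replicates of the genotype.

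**Figure D4:**
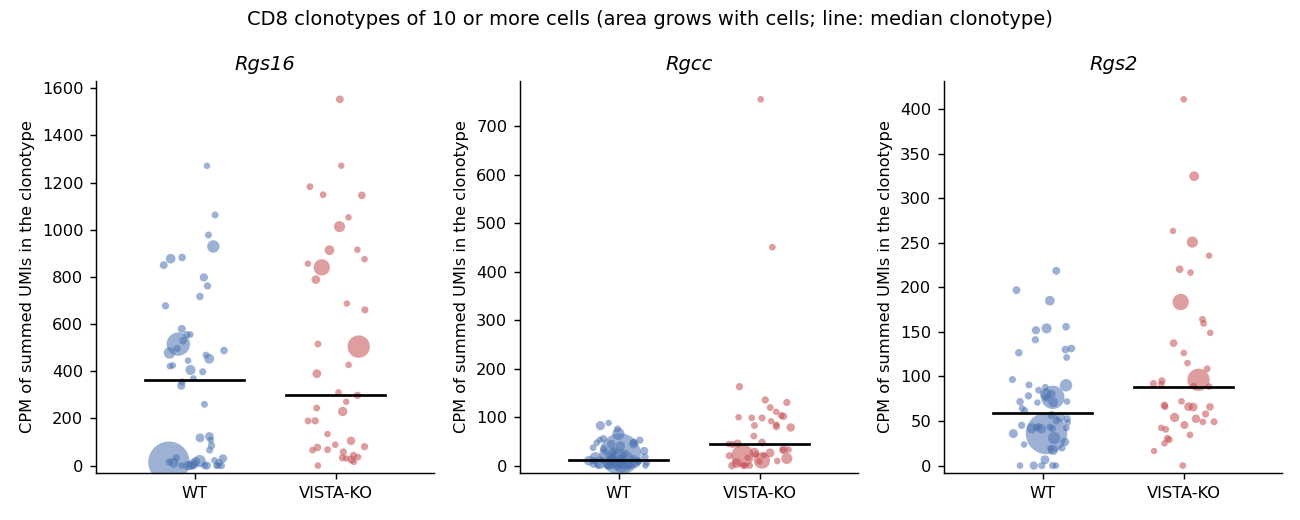
Level in CPM of summed UMIs (vertical axes) of Rgs16, Rgcc and Rgs2 in each CD8 clonotype of at least 10 cells in the WT (54 clonotypes, blue) and VISTA-KO (41, red) library. The area of a point grows with its cells and the line is the median clonotype. The largest WT clonotype of 1034 cells lies near 0 for Rgs16.

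By clone size, Rgcc was highest in CD8 cells whose clonotype was seen once, at 82.9 CPM in WT against 143 CPM in VISTA-KO. It fell to 39.1 and 83.0 CPM in clonotypes of 2 to 9 cells and to 16.2 and 57.5 CPM in those of 10 to 99. In those of 100 or more cells it stood at 19.6 and 16.6 CPM, and there the ratio between the libraries was 0.846 (0.614 to 1.15), against 1.73 to 3.56 in the smaller sizes. That size holds only 2 clonotypes in each library. Rgs10 was also highest in single-cell clonotypes, at 141 and 96.1 CPM. Rgs2 had no such order, with 68.0 and 102 CPM in single cells, 58.1 and 118 CPM at 2 to 9, 91.7 and 148 CPM at 10 to 99, and 48.1 and 129 CPM above.

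Rgs16 rose with clone size in WT from 71.1 CPM in single cells to 250 CPM at 2 to 9 and 505 CPM at 10 to 99, and stood at 164 CPM in the largest size. In VISTA-KO the same sizes held 188, 476, 643 and 630 CPM. In conventional CD4 cells Rgs16 was higher in clonotypes of 2 or more cells (296 and 266 CPM) than in single ones (73.1 and 105 CPM). Rgcc was nearly level by clone size there, at 95.1 and 216 CPM in single cells and 88.3 and 215 CPM in larger clonotypes. The largest conventional CD4 clonotype of VISTA-KO, of 55 cells, held Rgs16 at 2067 CPM, against 351 CPM in the largest of WT, of 27 cells.

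Nr4a1, an immediate-early gene of T cell receptor signaling, was 2.92 times as high in VISTA-KO CD8 cells (371 against 127 CPM), so cells were split by whether the thinned cell held an Nr4a1 UMI. Such cells made up 16.3% of WT and 34.0% of VISTA-KO CD8 cells, 21.7% and 55.4% of conventional CD4 cells, and 24.6% and 58.1% of regulatory cells. Rgcc was higher in CD8 cells with Nr4a1 (71.6 and 166 CPM) than without (38.5 and 84.5 CPM). The difference between the libraries stood in both, with ratios of 2.32 (1.90 to 2.86) and 2.19 (1.90 to 2.53).

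In conventional CD4 cells the Rgcc ratio was 1.496 (1.24 to 1.82) with and 1.65 (1.40 to 1.93) without Nr4a1, and in regulatory cells 1.79 (1.33 to 2.43) and 1.66 (1.25 to 2.20). Over all thinned cells of these kinds the ratio was 1.91 in conventional CD4 and 2.02 in regulatory cells, and 2.56 in CD8 cells, so that all 6 values of the split lay below the ratio of their kind. Rgs2 in CD8 cells was modestly higher with Nr4a1 than without, by 1.26 (1.04 to 1.52) in WT against 1.33 (1.16 to 1.52) in VISTA-KO, and its ratio between the libraries was 1.54 and 1.46. Rgs1 did not differ between CD8 cells with and without Nr4a1 beyond counting error, with ratios of 0.987 (0.934 to 1.04) and 0.959 (0.913 to 1.01). The part of immediate-early genes in the Rgcc and Rgs2 ratios was not tested beyond this split.

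**Figure D5:**
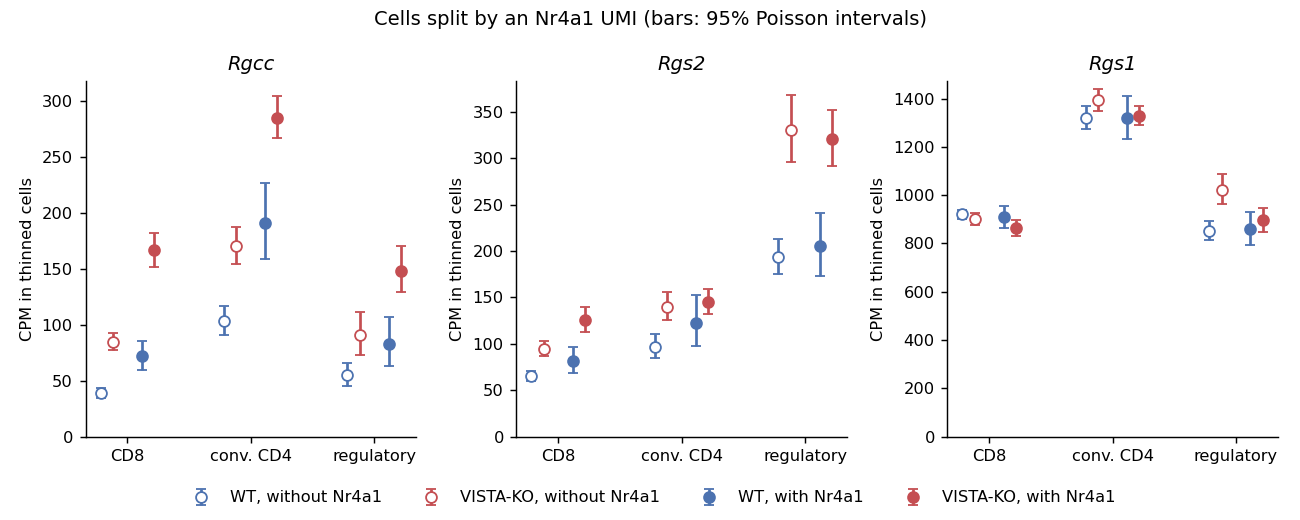
Level in CPM (vertical axes, from 0) of Rgcc, Rgs2 and Rgs1 in thinned cells with (filled) and without (open) an Nr4a1 UMI, in the 3 T cell kinds (horizontal axes) of the WT (blue) and VISTA-KO (red) library, with exact 95% Poisson intervals. Rgcc is higher with Nr4a1 than without it in each kind, and higher in VISTA-KO on both sides of the split.

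Within single CD8 cells thinned to 2000 UMIs, Rgs16 and Rgcc were seldom seen together. Of cells with an Rgcc UMI, 7.93% in WT against 14.4% in VISTA-KO held an Rgs16 UMI, against 18.9% and 29.2% of cells without one. Rgs2 and Rgs16 occurred together more often, since 31.4% and 38.0% of Rgs2 cells held Rgs16, against 16.6% and 25.1% of the rest. At least 3 of the 6 genes had a UMI in 9.80% of WT and 16.8% of VISTA-KO CD8 cells. These shares describe cells of 1 library each.

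The genes most like each member were sought over 28 groups of cells by Pearson correlation of log2 CPM among 7074 genes. These were the T cell groups above and the Siglech cells, in both libraries. The groups share libraries and cell kinds, so the values are a description. Of all groups, Rgs3 was lowest and Rgs10 highest in Siglech cells, so their correlations also span Siglech against T cells. Correlations among T cell groups alone were not computed. Rgs3 was followed most closely by Ikzf3 (r = 0.964), which encodes the transcription factor Aiolos, then Lasp1 and the T cell receptor component Cd3e. Rgs16 was followed by the cytochrome c oxidase subunits Cox7c (r = 0.933) and Cox6c and by Ier5l. Rgs2 was followed by Hilpda (r = 0.917), a lipid droplet protein induced by hypoxia, Dusp4 and Ctla4, and Rgs10 by the surface protein Ly6e (r = 0.953), Spint2 and the ATP-gated channel P2rx4. Rgcc was followed by the histone demethylase Kdm6b (r = 0.896), Gpr132 and Cnbp, and Rgs1 by the kinase Sik3 (r = 0.904), Fam102a and the transcription factor Fli1. Over the WT groups alone, 0 of the 3 genes of Rgcc and 0 of the 3 of Rgs2 stayed among the 20 most alike.

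The rest of the pathway was counted by the same fold. Depending on the kind, 0.824% to 1.93% of all genes were higher past it and 0.594% to 3.92% lower. With shares this small, a count of 0 in a short list is not read as a result about its genes. Of 17 further genes whose symbols begin with Rgs, Rgs7bp among them, only Rgs14 and Rgs19 reached 20 CPM in the T cell kinds. Rgs18 was added in Siglech cells, and 0 passed the fold. Rgs18, known from platelets and myeloid cells, stood at 74.2 and 93.7 CPM in Siglech cells. In CD8 cells Rgs14 stood at 56.8 and 59.5 CPM and Rgs19 at 96.9 and 90.9 CPM. Of the G alpha genes 6 of 15 were measured in CD8 cells, of the G beta and gamma genes 6 of 17, and of effectors and partners 10 of 30, and 0 of each passed the fold in any T cell kind. Gnai2, the Gi subunit that RGS proteins act on in lymphocytes, stood at 964 and 909 CPM and the Gs subunit Gnas at 888 and 859.7 CPM. Of Gq-class subunits, Gna15 stood at 57.0 and 56.7 CPM and Gna11 at 19.4 and 23.1 CPM. Of the beta and gamma genes, Gngt2 (31.3 and 27.1 CPM), Gnb2 (478 and 433 CPM) and Gng2 (245 and 266 CPM) were the most unequal. The effector Plcb2, a phospholipase C, came nearest in CD8 cells, with a ratio of 1.47 (1.31 to 1.66) from 14.7 to 21.6 CPM. The adenylyl cyclase Adcy7 followed at 0.828 (0.777 to 0.882) and Gpsm3, a G protein signaling modulator, at 0.909 (0.883 to 0.935). Median log2 ratios of these 3 lists in CD8 cells were 0.01, -0.02 and -0.03, beside -0.03 over all genes.

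Of lymphocyte G protein-coupled receptors, 19 of 35 in the tables were measured in CD8 cells, with a median log2 ratio of 0.03. Of these 0 passed the fold, against 0.824% of all genes higher and 0.594% lower. The most unequal were Cx3cr1 (0.682, 0.621 to 0.750), the chemokine receptor Ccr7 (1.37, 1.30 to 1.43) and S1pr1 (1.36, 1.27 to 1.45), which guides exit from tissue. In conventional CD4 cells 5 of 22 were higher past the fold (Ccr4, Ccr7, S1pr1, Gpr183 and Gpr132) against 1.01% of all genes, with a list median of 0.22 beside -0.04 over all genes. In regulatory cells 5 of 23 were higher, among them Ccr4 at 20.03 and 62.8 CPM, and 1 was lower (Cx3cr1), against 1.93% and 1.79% of all genes, with a list median of 0.23 beside -0.01.

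In CD8 cells, 0.824% of all genes were higher past the fold and 0.594% lower. Of the cell cycle kinases and regulators listed with Rgcc, 0 of 10 measured passed the fold in CD8 cells. There 9 of the 10 lay above 1, with a median log2 ratio of 0.16 beside -0.03 over all genes, and Cdk1 stood at 42.1 and 47.7 CPM. The most unequal there were cyclin A2 (Ccna2) at 1.33 (1.24 to 1.41), the inhibitor Cdkn2a at 1.33 (1.19 to 1.48) and cyclin B1 (Ccnb1) at 1.19 (1.07 to 1.32). In regulatory cells 5 of 10 were lower in VISTA-KO past the fold (Cdk1, Ccnb1, Ccnb2, Ccna2 and Plk1) against 1.79% of all genes, with a list median of -0.46 beside -0.01 and beside the smaller share of dividing cells there. In conventional CD4 cells, of 7 measured, Ccnb2 was lower and Cdkn1a higher past the fold, against 1.1% and 1.01% of all genes. Immediate-early and activation genes were higher past the fold in 8 of 23 in CD8, 10 of 22 in conventional CD4 and 15 of 22 in regulatory cells, against 0.824%, 1.01% and 1.93% of all genes. Their median log2 ratios were 0.33, 0.47 and 0.68, beside -0.03, -0.04 and -0.01 over all genes. In Siglech cells 4 of 22 were higher and 2 lower past the fold, against 1.87% and 3.92% of all genes. The list median there was 0.36 beside -0.02, and the Nr4a1 ratio was 2.78 (2.37 to 3.27). The highest in CD8 cells after Nr4a1 were Nr4a3 (2.47, 2.30 to 2.66) and Nfkbid (2.27, 2.15 to 2.40). Of heat shock genes, 0 of 10 passed the fold in CD8 cells, where Hspa1b was the most unequal at 0.708 (0.673 to 0.744), before Hspa1a at 0.815 (0.780 to 0.851) and Hspe1 at 1.18 (1.15 to 1.22). Over all kinds, with 10 measured in each, 0 heat shock genes were higher past the fold, against 0.824% to 1.93% of all genes. In conventional CD4 cells 1 was lower, against 1.1% of all genes, and in Siglech cells 2, against 3.92%. These lists were chosen with earlier results of the same libraries known and their counts are descriptions.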

How the data were processed

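The authors aligned gene expression and receptor reads with Cell Ranger 5.0.0 (mouse, GRCm38). The deposited tables are unnormalized counts of UMIs by gene and called barcode, and UMI counts of each productive receptor contig. A 5′ kit is named in the methods and a 3′ kit in the labels. Here, barcodes with at least 600 genes and under 30% mitochondrial UMIs were kept, 10224 of 10337 in WT and 9946 of 10085 in VISTA-KO, and each entered 1 kind of cell. Doublets were kept, and cells with 2 or more productive beta chains were left out in an alternative. UMIs were summed over cells, scaled to CPM and compared as log2((VISTA-KO + 5)/(WT + 5)). With 1 library per genotype there was no test, and intervals cover counting error only. Shares of cells were taken after thinning each cell to 2000 UMIs, which left out 290 WT and 186 VISTA-KO CD8 cells, 133 and 158 conventional CD4, 45 and 51 regulatory, and 1 and 1 Siglech cells.

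The members and gene lists were chosen with earlier results of these data known. Named were all members, the 3 genes most alike to each, and from each list the 3 most unequal in CD8 cells, every other RGS gene of at least 20 CPM, and genes past the fold in other kinds or at the centre of the pathway (chosen after their values were seen). Coordinates and promoters are RefSeq's, on GRCm38.p6. A group of CD8 and a group of conventional CD4 cells are not reported here, and the correlations and equal weights leave them out. Ratios and intervals were tested on simulated data. Alternatives changed the pseudocount, scaling (TMM of edgeR 4.0.16 under R 4.3.3), weighting, depth, gates, doublets, receptors, clonotypes and filters. Python 3.11.15, numpy 2.4.6, scipy 1.17.1, pandas 2.3.3 and matplotlib 3.10.9 were used.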

Additional observations from a re-analysis of the deposited data

Results flagged for a closer look

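Some genes had ratios of VISTA-KO over WT whose counting intervals lay on opposite sides of 1 in different groups of cells. The differences between these groups were not tested, since each genotype has 1 library.

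Across cell kinds, the Rgs16 ratio was 1.55 in CD8 cells and 0.566 in Siglech cells. The Siglech value rests on 237 and 75 UMIs and turned to a log2 ratio of 0.53 among cells of 2000 to 10000 UMIs. The Rgs3 ratio was 1.06 in CD8 cells and 0.528 in Siglech cells, where few UMIs were counted.

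Across groups of CD8 cells, the Rgs1 ratio was 1.22 in dividing and 0.752 in cells with Pdcd1 and Tcf7. The latter was 0.803 without the largest CD8 clonotype of each library. The Rgs3 ratio was 1.20 in cells with Pdcd1 and Havcr2 and 0.606 in those with Cx3cr1 or S1pr5.

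Across groups of conventional CD4 cells, the Rgs1 ratio was 1.22 in dividing cells and 0.844 in the cells that remained after dividing cells and those with Cxcr6. The Rgs16 ratio went the other way there, with 0.787 in dividing cells and 3.14 in these remaining cells. By clone size, it was 1.44 in single-cell clonotypes and 0.900 in those of 2 or more cells. In regulatory cells the Rgs16 ratio was 1.47 in cells with Itgae and 0.731 in dividing cells. The groups of conventional CD4 and regulatory cells were not also read on thinned cells.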

How the results depend on the processing

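Values are log2 ratios of VISTA-KO over WT. No paired analysis was possible because each genotype has 1 library and no test was run. Rgcc stayed past the fold of 1.5 in the same direction under all 17 alternatives in CD8, 16 in conventional CD4 and 16 in regulatory cells, and under 12 of 13 in Siglech cells, where it was 0.56 among cells of 2000 to 10000 UMIs. Rgs2 stayed past it under 15 of 17 in CD8 and 16 of 16 in regulatory cells, and Rgs16 under 15 of 17 in CD8 cells.

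Without the largest clonotype of each library, Rgs16 in CD8 cells was 0.40 and Rgs2 0.56, and without CD8 clonotypes of 100 or more cells they were 0.39 and 0.52. With each cell weighing the same, CD8 values were 0.73 for Rgs2, 0.85 for Rgs16 and 1.26 for Rgcc, Rgcc in conventional CD4 cells was 0.98 and Rgs16 in Siglech cells -0.25. After thinning, Rgs16 and Rgcc in CD8 cells were 0.89 and 1.26, Rgcc 0.91 in conventional CD4, 0.96 in regulatory and 1.34 in Siglech cells, and Rgs2 0.71 in regulatory cells. Among cells of 2000 to 10000 UMIs, CD8 values were 0.78 for Rgs2, 0.89 for Rgs16 and 1.25 for Rgcc, Rgcc in conventional CD4 cells was 0.98 and Rgs2 in regulatory cells 0.62. With a beta chain required, Rgs2 and Rgcc were 0.76 and 1.25 in CD8 and 0.70 and 0.71 in regulatory cells. Without cells with Cd8 UMIs, Rgcc was 0.93 in conventional CD4 and 0.76 in regulatory cells, and Rgs2 0.65 in regulatory cells. Without dividing cells Rgs16 was 0.78 in CD8 and -0.23 in Siglech cells, and with equal weight for the groups of CD8 cells 0.69.

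Directions turned in Siglech cells alone among values past the fold, where Rgs3 went from -0.71 to 0.51 after thinning and 0.11 among cells of 2000 to 10000 UMIs, and Rgs16 from -0.76 to 0.53 in the latter. Without Siglech cells that held T cell UMIs, 29 and 26 cells remained and Rgs3 was -1.49. The causes were not tested. The settings by clonotypes of 100 or more cells, by 2000 to 10000 UMIs, by melanoma UMIs, by shared barcodes and by T cell UMIs were chosen after seeing the data, as was leaving out the largest clonotype within groups of CD8 cells. Reading the groups of CD8 cells on thinned cells left 5 Rgs2, 7 Rgs16 and 7 Rgcc intervals above 1, against 6, 6 and 7. Siglech cells are few (221 and 138), and Rgs3 rests there on 61 and 18 UMIs.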
